A study of Mus musculus with 12 samples.

Results

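The immediate early genes described here are 10 mouse genes, *Arc*, *Fos*, *Fosb*, *Jun*, *Junb*, *Egr1*, *Ier2*, *Atf3*, *Npas4* and *Nr4a1*. They were found by symbol among the 27998 genes measured in single cells of the dentate gyrus and by Entrez identifier among the 40814 genes counted in neurospheres, and all 10 were found in each table. They were selected on their known dependence on the release of paused RNA polymerase II, at a time when values of these libraries were known, both the neurosphere counts and the single-cell UMI counts. *Arc* is the gene the set is named after, so its values are given as a description without a test, and no direction shown by the set as a whole is independent of that choice.

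The study examined mice that lack *Larp7*, a subunit of the 7SK ribonucleoprotein, in the developing brain. Of the 12 samples of the series, 8 are used here. Single-cell RNA was measured at postnatal day 7 (P7) in 3 libraries of microdissected dentate gyrus, 1 from wild-type mice, 1 from *Larp7* f/f;nestin-Cre mice and 1 from *Larp7* f/f;Emx1-Cre mice. Bulk RNA was measured in 5 libraries of neurospheres, 2 wild-type and 3 *Larp7* f/f;Emx1-Cre (hereafter knockout), that had been plated on Matrigel and kept for 2 days with bFGF. The sample titles and the study place these libraries at day 2 of differentiation. The study's methods name serum only after the 2 days with bFGF. Its results instead describe differentiation as started by taking EGF and FGF away and adding serum. The wild-type animals carry the floxed *Larp7* allele without Cre according to the study's text, whereas the sample labels only say wild-type. The nestin-Cre driver acts in neural stem and progenitor cells of the whole central nervous system, and in some cells of other organs, and the Emx1-Cre driver acts in progenitors of the dorsal forebrain. Each P7 library combines 3 to 4 gyri of littermates. A library is thus 1 sample however many cells it holds, and no test between the P7 genotypes was possible. All P7 gyri were dissociated with accutase at body temperature before RNA was measured. The P7 levels are therefore those of dissociated cells, and the part of the dissociation in them was not tested. The neurospheres were grown from dentate gyri of newborn mice, and as nothing in the labels ties a neurosphere library to an animal or a culture, their p-values measure the spread between these libraries, which may be technical.

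Immediate early genes are transcribed within minutes of a stimulus, before any new protein is made, because RNA polymerase II already waits a short distance downstream of their start sites. The kinase P-TEFb releases it, and the 7SK ribonucleoprotein, with its subunits Larp7 and Hexim1, holds P-TEFb inactive. In the hippocampus these genes are known as markers of neurons that have recently been active, and in many tissues they also respond to growth factors, stress and the handling of cells.

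*Larp7* was examined first in every library as a check of the labels. In wild-type neurospheres it was at 42.8 and 35.0 CPM (counts per 1e6 counts, with TMM factors), and in knockout neurospheres at 4.17, 6.35 and 4.39 CPM. The groups did not overlap, and the log2 fold change of -2.97 (SE 0.20, n = 2 and 3) passed edgeR's quasi-likelihood test with Benjamini-Hochberg adjustment over 17753 genes (adjusted p = 0.0107). That call was lost without knockout replicate 1, without knockout replicate 3 and with a block for the replicate number. In the P7 libraries, *Larp7* over all cells was at 57.3 CPM in the wild-type, 12.5 in the nestin-Cre and 14.6 in the Emx1-Cre library. The loxP sites flank a single exon of *Larp7*, and the 3′ tags counted in these cells are not shown to lie in it, so the P7 level by itself does not check the deletion. The sample titles and the genotype entries of the mutant P7 libraries name opposite Cre drivers. The titles were followed here, since the total numbers of cells that the study states for each driver lie close below the barcode numbers of the libraries so titled. The level of *Larp7* tells mutant from wild-type but not one driver from the other.

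Of the 9 members other than *Arc*, 0 passed an adjusted p of 0.05 in edgeR's quasi-likelihood test between knockout and wild-type neurospheres, 6 had an unadjusted p below 0.05, and DESeq2 called 5 (*Egr1*, *Ier2* and *Nr4a1* higher, *Fos* and *Fosb* lower). Over all 17753 genes edgeR called 0.0225% higher and 0.0451% lower, 10.2% were higher and 11.4% lower at an unadjusted p below 0.05, and DESeq2 called 4.95% higher and 5.87% lower of the 14697 genes it tested. Of the same 9 members, 6 did not overlap between the groups, 4 of them higher and 2 lower in the knockout, beside 21.3% of all genes that were higher and 21.3% that were lower without overlap. Their median log2 fold change was 0.55, against 0.0065 over all genes. Without wild-type replicate 1 edgeR called 4 of the 9 members (*Egr1*, *Fosb*, *Ier2* and *Nr4a1*) and, over all genes, 1144 higher and 976 lower in place of 4 and 8, but that fit has 1 wild-type library and takes its spread from the knockout libraries alone, so nothing is drawn from it. In such bulk samples, fewer cells of a type and less RNA per cell cannot be told apart.

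The AP-1 family members, whose products pair to form a transcription factor, did not move as a group in the neurospheres. *Fos* was at 151 and 174 CPM in the wild-type libraries and at 111, 68.4 and 94.5 CPM in the knockout libraries. Every knockout library was below both wild-type libraries, with a log2 fold change of -0.83 (SE 0.20, edgeR adjusted p = 0.115). *Fosb*, a close relative of *Fos* with the same partners, was at 40.9 and 58.4 CPM against 12.5, 7.79 and 13.2 CPM. Here too the knockout libraries were all lower, and the log2 fold change of -2.15 (SE 0.26, edgeR adjusted p = 0.0705) was the most negative among the members. *Jun*, which pairs with Fos proteins, was at 88.6 and 106 CPM against 99.3, 93.2 and 93.9 CPM, and the groups overlapped (log2 fold change -0.03, SE 0.09, edgeR adjusted p = 0.885). *Junb* was at 21.6 and 17 CPM against 22.7, 12.3 and 24.3 CPM. Its knockout libraries lay on both sides of the wild-type libraries (log2 fold change 0.03, SE 0.30, edgeR adjusted p = 0.961), and the direction of *Jun* and of *Junb* turned under other settings. *Atf3*, a stress-induced factor of the ATF branch of the family, was near the limit of detection at 0.482 and 0.415 CPM against 0.806, 0.470 and 0.700 CPM, again with overlap.

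The members outside AP-1 were higher in every knockout library than in either wild-type library, although none of those tested passed the adjusted threshold in edgeR. *Egr1*, a zinc finger factor induced by growth factors and by neuronal activity, was at 437 and 307 CPM in wild-type and at 599, 515 and 657 CPM in knockout libraries. Its log2 fold change was 0.67 (SE 0.17, edgeR adjusted p = 0.120). *Ier2*, a nuclear protein of the early response, was at 33.8 and 28.7 CPM against 47.9, 40.6 and 49.7 CPM (log2 fold change 0.56, SE 0.12, edgeR adjusted p = 0.0945). *Npas4*, a factor known for its induction by calcium entry in neurons, was low throughout, at 1.05 and 0.631 CPM against 1.71, 2.50 and 1.67 CPM (log2 fold change 1.22, SE 0.36, edgeR adjusted p = 0.136). *Nr4a1*, an orphan nuclear receptor, was at 43.5 and 24.3 CPM against 55.5, 56.9 and 68.0 CPM. The 2 wild-type libraries differed from each other more than the knockout libraries did (log2 fold change 0.83, SE 0.25, edgeR adjusted p = 0.155). *Arc*, the effector of the set, encodes a protein that moves AMPA receptors away from synapses. It was at 2.84 and 2.26 CPM in wild-type and at 8.43, 9.56 and 11.5 CPM in knockout libraries, a mean of 2.55 ± 0.412 (SD, n = 2) against 9.82 ± 1.54 (SD, n = 3). Every knockout library was above both wild-type libraries, a log2 difference of 1.95.

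**Figure D1:**
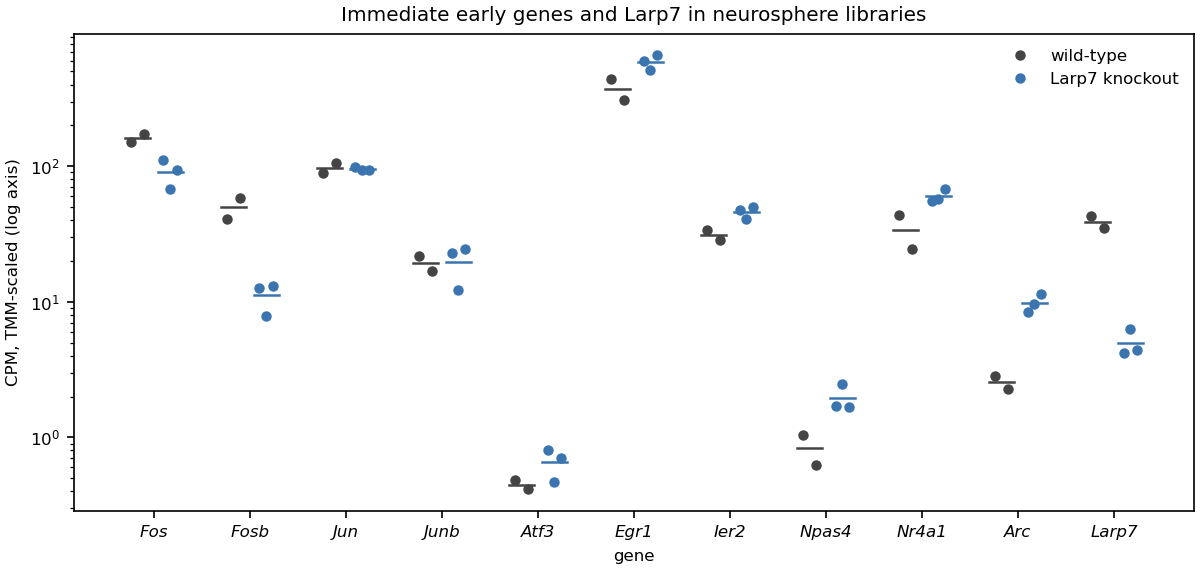
Immediate early genes and *Larp7* in the neurosphere libraries. Each point is 1 library (2 wild-type, 3 *Larp7* knockout), horizontal lines are group means, and the log axis gives TMM-scaled CPM; the knockout libraries of *Arc* sit between 8.43 and 11.5 CPM, above both wild-type libraries, and those of *Fosb* between 7.79 and 13.2 CPM, below both.

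Further lists of genes were counted in the same fit. Of 40 other immediate early and early response genes, such as the phosphatases and inhibitors that end the response, 39 were tested. edgeR called 0 of them, 22 were higher and 1 lower at an unadjusted p below 0.05, and their median log2 fold change was 0.50. *Jund*, the gene of that list with the most UMIs at P7, was at 124 and 147 CPM in wild-type and at 123, 129 and 129 CPM in knockout neurospheres. Of 13 heat shock genes that rise when cells are handled, edgeR called 0 and 0 had an unadjusted p below 0.05, with a median of 0.10, while *Hsp90ab1* was at 1976 and 1764 CPM against 2088, 1940 and 2024 CPM. Of 28 kinases and transcription factors upstream of these genes, edgeR called 0, with 5 higher and 1 lower at an unadjusted p below 0.05 and a median of -0.04. *Map2k2*, a kinase of the ERK pathway, was at 106 and 104 CPM against 110, 94.1 and 105 CPM. Of 11 tested synaptic partners of Arc, edgeR called 0, with 0 higher and 2 lower at an unadjusted p below 0.05 and a median of -0.11, and *Gria2*, an AMPA receptor subunit, was at 647 and 739 CPM against 487, 595 and 549 CPM. Of the 16 genes of pause release, *Larp7* was the single gene called by edgeR, and the list's median was -0.05. *Supt4a*, a subunit of the pausing factor DSIF, was at 23.8 and 29.5 CPM against 27.3, 26.3 and 23.3 CPM. *Hexim1*, named after its values were seen, was at 69.9 and 85.2 CPM against 136, 130 and 123 CPM (log2 fold change 0.74, edgeR adjusted p = 0.0669). Over all lists and members other than *Arc*, DESeq2 called 27 of 112 genes, 22 higher and 5 lower. Over all 14697 genes it tested, it called 4.95% higher and 5.87% lower.

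The P7 libraries held 28918491 UMIs (unique molecular identifiers, each counted as 1 RNA molecule) over 12876 barcodes in the wild-type, 26689878 over 7177 in the nestin-Cre and 28537738 over 6821 in the Emx1-Cre library. Cells had to show over 500 genes and a mitochondrial share of UMIs under 15%, the limits of the study's methods. This left 10997, 6685 and 6531 cells with median depths of 1782, 3644 and 3873 UMIs. These cell numbers are below the totals that the study states after quality control, most of all in the wild-type library. Between 11 and 23 barcodes were shared by any pair of libraries. Cells were clustered without the members and without the early response and heat shock genes, and clusters were named from marker genes, with the ending -like. Cells like radial glia-like stem cells (RGL-like) numbered 853, 959 and 1018 in the wild-type, nestin-Cre and Emx1-Cre libraries, and cells like neuronal intermediate progenitors (nIPC-like) 1486, 1536 and 1664. Neuroblast-like cells numbered 1007, 968 and 1051, and granule neuron-like cells 439, 1188 and 861. Among the top 10 genes by fold, RGL-like cluster 12 had the stem cell markers *Hopx* and *Thrsp*, RGL-like cluster 13 had *Hopx*, *Riiad1* and *Lpar1*, and nIPC-like cluster 1 had *Eomes* and *Mfap4*, whereas the other nIPC-like clusters had mostly genes of replication and mitosis. Unnamed cells made up 34.2% of the wild-type, 7.12% of the nestin-Cre and 5.44% of the Emx1-Cre library, with 3418 of the wild-type ones in a cluster with few counts (median 1025 UMIs) that held 85 and 87 cells of the mutant libraries. A level in a class is the gene's summed UMIs as CPM of all UMIs of that class, given with an exact Poisson 95% interval that covers counting error only.

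Most members were higher in glial and stem cells than in the neuronal lineage, as read in the wild-type library over RGL-like, nIPC-like, neuroblast-like, granule neuron-like, astrocyte-like and microglia-like cells. Among these classes *Fos* was highest in astrocyte-like cells at 2837 CPM (interval 2781 to 2895), followed by RGL-like cells at 2122 (2067 to 2179) and microglia-like cells at 660 (618 to 704). It was at 453 CPM in nIPC-like, 403 in neuroblast-like and 328 in granule neuron-like cells, and no neighbours in this order had overlapping intervals. The wild-type erythroid-like cells were not among the compared classes. Their cluster had haemoglobin genes among its top genes, but also *Rpgrip1*, *Slc39a1*, *Spry2* and *Slc24a5*, as had the unnamed cluster with few counts. Their median depth was 1142 UMIs, and *Gria2* was at 566 CPM, against 480 CPM in wild-type RGL-like cells, so they are not shown to be blood cells. They showed *Fos* at 1057 CPM, *Jun* at 678, *Egr1* at 525 and *Ier2* at 389 CPM, and *Junb* was at 268, *Fosb* at 78.5, *Nr4a1* at 63.1 and *Atf3* at 56.1 CPM. Of these, all but *Egr1* and *Ier2* were higher beyond counting error than in nIPC-like, neuroblast-like and granule neuron-like cells of the same library, *Fos* also than in microglia-like cells, while *Atf3* overlapped the RGL-like level. The part of RNA from outside the cell in these levels was not tested. *Jun* had the same first places, with 1389 CPM in astrocyte-like and 1022 in RGL-like cells, and its lowest value in nIPC-like cells at 289 CPM. *Egr1* was at 984 CPM in astrocyte-like, 923 in microglia-like and 575 in RGL-like cells, and the intervals of the first 2 overlapped. *Junb* and *Atf3* were highest in microglia-like cells, the immune cells of the brain, with 1251 CPM for *Junb* and 645 for *Atf3*, but these levels come mostly from 1 of the 2 clusters of that class. Cluster 3 had *Junb* at 1749 and *Atf3* at 964 CPM, whereas cluster 2, with 292 of the 547 wild-type cells, had *Junb* at 477 CPM, below the 730 CPM of astrocyte-like cells, and *Atf3* at 149 CPM. *Egr1* and *Nr4a1* likewise were at 1186 and 360 CPM in cluster 3 and at 515 and 104 CPM in cluster 2. In RGL-like cells *Junb* was at 358 and *Atf3* at 45.1 CPM, and in granule neuron-like cells *Atf3* rested on 2 UMIs. *Nr4a1* was at 260 CPM in microglia-like and 225 in astrocyte-like cells, whose intervals overlapped, and was at 97.1 in RGL-like, 23.5 in nIPC-like and 6.97 in neuroblast-like cells. *Ier2* varied less than 2-fold among these classes, from 317 CPM in nIPC-like to 599 in microglia-like cells.

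*Arc* and *Npas4* were rare. *Arc* was found in 437 UMIs of all named and unnamed classes of at least 50 cells. In the wild-type library it was highest in RGL-like cells at 10.3 CPM (interval 6.80 to 15, 27 UMIs), and the next value, 5.56 (3.35 to 8.69) in astrocyte-like cells, had an overlapping interval. Of the 27 UMIs, 22 lay in cluster 13 of the RGL-like class (19.7 CPM), and cluster 12, with 493 of the 853 cells, was at 3.34 CPM (1.08 to 7.80), so the first place comes from cluster 13. In nIPC-like cells *Arc* was at 0.632 CPM and in neuroblast-like cells at 0.634 CPM, from 4 and 2 UMIs, with a value of 2.54 from 3 UMIs in granule neuron-like cells. The wild-type erythroid-like cells showed *Arc* at 1.40 CPM (0.170 to 5.06), and the intervals of the wild-type neuronal classes overlapped that value. *Npas4* was at no more than 5.87 CPM in the compared classes, the value of granule neuron-like cells of the Emx1-Cre library (17 UMIs), and at 1.69 and 1.95 CPM in those of the wild-type and nestin-Cre libraries (2 and 8 UMIs). Ratios between genotypes were not given for *Npas4*, which had fewer than 50 UMIs in each comparison.

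**Figure D2:**
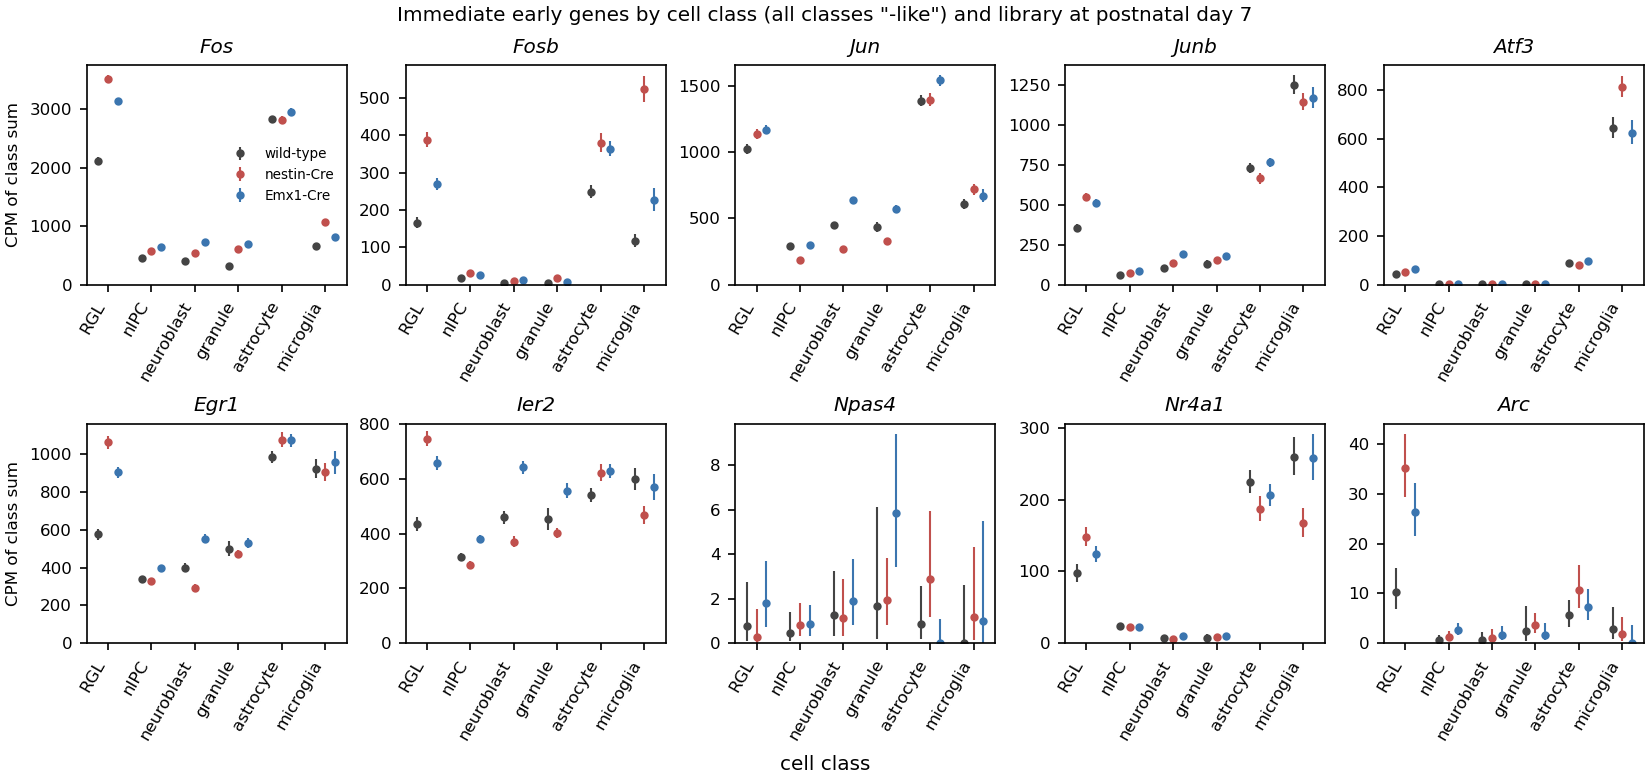
Levels of the 10 immediate early genes by cell class in the P7 libraries. The vertical axes give CPM of the summed UMIs of a class, points are single libraries (wild-type, nestin-Cre, Emx1-Cre), bars are exact Poisson 95% intervals that cover counting error only, and each panel has its own scale; *Fos* in RGL-like cells goes from 2122 CPM in the wild-type to 3531 and 3139 in the mutant libraries, while in astrocyte-like cells it lies between 2814 and 2960.

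In RGL-like cells, the stem cells of the gyrus, most of the set was higher in both mutant libraries, although fewer members passed 1.5-fold within the single clusters of the class, as given further on. The wild-type library had the 10 members together at 4831 CPM (4747 to 4916), the nestin-Cre library at 7649 (7559 to 7740) and the Emx1-Cre library at 6870 (6788 to 6953), log2 ratios to wild-type of 0.66 and 0.51. *Fos* contributed 43.9%, 46.2% and 45.7% of these sums. Of the 8 members other than *Arc* with at least 50 UMIs, 6 were at least 1.5-fold higher in the nestin-Cre library, beside 10.5% of the 9640 genes measured there, and 0 were 1.5-fold lower, beside 3.30%. In the Emx1-Cre library 3 of 8 were at least 1.5-fold higher, beside 7.24% of 9735 genes, and 0 were lower, beside 2.11%. The median log2 ratio of these members was 0.68 in the nestin-Cre and 0.55 in the Emx1-Cre library, against 0.07 over all genes in each. Both comparisons share the wild-type library, and neither has a replicate.

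*Fos* in RGL-like cells was at 2122 CPM in the wild-type, 3531 in the nestin-Cre and 3139 in the Emx1-Cre library, log2 ratios of 0.73 (interval 0.69 to 0.78) and 0.56 (0.52 to 0.61). *Fosb* was at 166, 387 and 269 CPM (log2 ratios 1.22 and 0.70), the largest ratios of the AP-1 genes in this class. *Junb* was at 358, 549 and 511 CPM. *Jun* was at 1022, 1137 and 1170 CPM, with log2 ratios of 0.15 and 0.19 over the whole class. Within its clusters the nestin-Cre ratio was -0.24 (-0.38 to -0.11) in cluster 12 and -0.02 (-0.11 to 0.07) in cluster 13, and the Emx1-Cre ratio -0.01 (-0.12 to 0.11) and 0.13 (0.04 to 0.22), so *Jun* was above 0 beyond counting error only for Emx1-Cre in cluster 13. *Atf3* was at 45.1, 52.1 and 65.7 CPM, and its interval overlapped that of the wild-type library in nestin-Cre but not in Emx1-Cre cells. *Egr1* was at 575, 1062 and 904 CPM (log2 ratios 0.89 and 0.65), and *Ier2* at 435, 748 and 658 CPM (0.78 and 0.60). *Nr4a1* was at 97.1, 148 and 124 CPM, and neither mutant interval overlapped that of the wild-type library over the whole class. Within single clusters its ratio was beyond counting error only for nestin-Cre in cluster 13, at 0.47 (0.19 to 0.76), with 0.36 (-0.03 to 0.75) in cluster 12 and 0.27 in each cluster for Emx1-Cre. *Arc* was at 10.3 CPM in the wild-type, 35.3 (29.4 to 42.0, 126 UMIs) in the nestin-Cre and 26.5 (21.6 to 32.1, 103 UMIs) in the Emx1-Cre library. Its intervals in both mutant libraries lay above that of the wild-type library, with log2 ratios of 1.77 (1.16 to 2.43) and 1.36 (0.73 to 2.03), the largest of the set in this class. With cells thinned to 1500 UMIs the ratio of *Arc* in the Emx1-Cre library was 0.80 (-0.19 to 1.87), which was not beyond counting error.

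The RGL-like class joins a pair of clusters that the libraries filled unequally. Most wild-type cells were in cluster 12 (493 of 853), whereas cluster 13 held 668 of 959 nestin-Cre and 593 of 1018 Emx1-Cre cells. Within cluster 12 the summed members had log2 ratios of 0.52 in the nestin-Cre and 0.40 in the Emx1-Cre library, and within cluster 13 of 0.48 and 0.43, so each was smaller than over the whole class and above 0. In cluster 12 of the nestin-Cre library 4 of the 8 members other than *Arc* with at least 50 UMIs (*Fos*, *Fosb*, *Egr1* and *Ier2*) were at least 1.5-fold higher, beside 10.2% of 6899 genes, and 0 were lower, beside 5.75%. In cluster 12 of the Emx1-Cre library 1 of 8 (*Ier2*) was higher, beside 8.04% of 7714 genes, and 0 were lower, beside 2.94%. Single clusters thus held fewer members past 1.5-fold than the whole class did in each comparison. In cluster 13 *Fosb* and *Egr1*, 2 of 8, were higher in the nestin-Cre library, beside 10.7% of 8186 genes, and the same 2 of 8 in the Emx1-Cre library, beside 7.44% of 7774 genes, with 0 lower, beside 3.81% and 2.95%. The median log2 ratio of these members was 0.47 and 0.38 in cluster 12 and 0.50 and 0.47 in cluster 13 for the nestin-Cre and Emx1-Cre libraries, against 0.04 to 0.07 over all genes. *Jun* and *Atf3* were the members below 0, *Jun* in both clusters for nestin-Cre and in cluster 12 for Emx1-Cre, and *Atf3* in both clusters for nestin-Cre. The part of the unequal filling in the values of the whole class was not tested beyond these clusters. *Arc* rested on 5, 17 and 26 UMIs of the wild-type, nestin-Cre and Emx1-Cre libraries in cluster 12, too few for a ratio, and had log2 ratios of 1.14 (0.47 to 1.87) and 0.85 (0.15 to 1.60) within cluster 13.

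The other lists were read in the same RGL-like cells. Of the 40 other immediate early and early response genes, 29 had at least 50 UMIs, of which 19 were 1.5-fold higher in the nestin-Cre and 16 in the Emx1-Cre library and 0 were lower. Their sum, with *Btg2* as the most abundant gene, was at 2656 CPM in the wild-type, 4441 in the nestin-Cre and 3830 in the Emx1-Cre library. The 13 heat shock genes summed to 7259 CPM (7156 to 7363) in the wild-type, 6975 (6889 to 7062) in the nestin-Cre and 7557 (7471 to 7644) in the Emx1-Cre library, led by *Hsp90ab1*. That sum was thus lower in the nestin-Cre and higher in the Emx1-Cre library beyond counting error, 0 of the 12 genes with enough UMIs passed 1.5-fold in either, and the part of the handling of cells in the members' levels was not tested. Of 24 upstream kinases and factors with enough UMIs, 2 were higher and 1 lower in the nestin-Cre library and 3 were higher in the Emx1-Cre library. Of 15 pause release genes, 2 were higher in the nestin-Cre and 1 in the Emx1-Cre library, *Hexim1* in each case among them, and 1 was lower in each, *Larp7* itself, at 37.5, 10.1 and 9.50 CPM. *Hexim1* was at 57.7, 103 and 97.3 CPM. Of 9 synaptic partners of Arc, 1 was higher in the nestin-Cre and 0 in the Emx1-Cre library. The median RGL-like cell held 2995 UMIs in the wild-type, 3559 in the nestin-Cre and 3567 in the Emx1-Cre library, and the part of this difference in depth in the results was not tested beyond the thinned values.

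The nIPC-like class is named after the dividing progenitors between stem cells and neuroblasts, but its cluster 1 had no gene of replication or mitosis among its top genes. In nIPC-like cells the members differed in direction in the nestin-Cre library and were mostly higher in the Emx1-Cre library, by amounts that depended on the processing. The summed members were at 1505 CPM in the wild-type, 1514 in the nestin-Cre and 1868 in the Emx1-Cre library, log2 ratios of 0.0088 (interval -0.03 to 0.05) and 0.31 (0.28 to 0.35). With cells thinned to 1500 UMIs these ratios were -0.11 and 0.17, and with cells taken by a marker gate in place of clusters -0.40 (-0.47 to -0.33) and 0.013 (-0.04 to 0.07), so the higher Emx1-Cre sum was lost under the gate. Of 7 members with at least 50 UMIs in the nestin-Cre comparison, *Fosb* was at least 1.5-fold higher, beside 11.0% of 10676 genes, and *Jun* at least 1.5-fold lower, beside 5.10%. In the Emx1-Cre comparison 0 of 8 members were 1.5-fold higher, beside 7.93% of 10780 genes, and 0 were lower, beside 2.23%. Above 0 were 3 of 7 members for nestin-Cre (median log2 ratio -0.05, against 0.06 over all genes) and 7 of 8 for Emx1-Cre (0.25, against 0.08). *Fosb* went from 18.0 CPM in the wild-type to 29.9 in the nestin-Cre and 25.6 in the Emx1-Cre library. With the marker gate the higher nestin-Cre level of *Fosb* was lost, its ratio lying slightly below 0. *Fos* was at 453, 580 and 650 CPM (log2 ratios 0.36 and 0.52) over the whole class. Within cluster 1 its ratios were -0.43 (-0.60 to -0.25) for nestin-Cre and -0.07 (-0.23 to 0.10) for Emx1-Cre. In clusters 4, 5 and 14 both *Fos* ratios were above 0 beyond counting error. *Junb* was at 58.4, 74.5 and 84.5 CPM. *Jun* was at 289, 186 and 297 CPM, so the nestin-Cre library alone stood apart. *Egr1* lay between 329 and 400 CPM and *Nr4a1* between 22.1 and 23.5 CPM, with all intervals of *Nr4a1* overlapping. *Arc* rested on 4, 9 and 22 UMIs in the wild-type, nestin-Cre and Emx1-Cre libraries. The summed ratio differed between the clusters of the class, from -0.69 in cluster 1 to 0.50 in cluster 4 for the nestin-Cre library and from -0.09 to 0.56 in the same clusters for the Emx1-Cre library. For nestin-Cre, *Jun* was at 0.09 (-0.17 to 0.36) in cluster 4 and below 0 beyond counting error in the other 3 clusters, and *Fosb* was at 0.98 in cluster 5 and 1.23 in cluster 14, with fewer than 50 UMIs in clusters 1 and 4. Cluster 1, with *Eomes*, *Mfap4* and the neuroblast markers *Tac2* and *Nhlh1* among its top genes, held 520, 702 and 674 cells of the wild-type, nestin-Cre and Emx1-Cre libraries. Of 35 other early response genes, 12 were higher in each mutant library and 0 were lower, and 0 of 10 heat shock genes passed 1.5-fold in either. Of 10 synaptic partners of Arc, 5 were higher in the nestin-Cre and 2 in the Emx1-Cre library and 0 lower, and their sum, led by *Gria2*, was at 374, 493 and 407 CPM in the wild-type, nestin-Cre and Emx1-Cre libraries. Whether the makeup of the class, which these neuronal genes also read, has a part in the members' values was not tested.

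In neuroblast-like cells the mutant libraries lay on opposite sides of the wild-type library for several members. The wild-type library had the sum at 1833 CPM (1786 to 1881), the nestin-Cre library at 1620 (1578 to 1662) and the Emx1-Cre library at 2788 (2738 to 2839). In the nestin-Cre comparison *Fosb* was the 1 member of 6 at least 1.5-fold higher, beside 11.7% of 9153 genes, and *Jun* the 1 member lower, beside 9.44%. In the Emx1-Cre comparison *Fos*, *Fosb* and *Junb*, 3 of 7, were at least 1.5-fold higher, beside 8.61% of 9321 genes, and 0 were lower, beside 4.15%. *Fos* was at 403 CPM in the wild-type, 536 in the nestin-Cre and 736 in the Emx1-Cre library, and *Junb* at 101.7, 134 and 190 CPM. *Fosb* rested on 14, 36 and 48 UMIs. *Jun* was at 451, 267 and 639 CPM, *Egr1* at 400, 294 and 552 CPM, and *Ier2* at 460, 370 and 643 CPM, each lowest in the nestin-Cre and highest in the Emx1-Cre library. Of the other early response genes, 8 were higher and 1 lower of 25 in the nestin-Cre library, and 14 were higher and 0 lower of 28 in the Emx1-Cre library. The heat shock sum was at 10352, 10036 and 10713 CPM, with 1 of 10 genes lower in the nestin-Cre library and 0 past 1.5-fold in the Emx1-Cre library. Of 10 synaptic partners of Arc, 4 were higher in the nestin-Cre and 1 in the Emx1-Cre library and 0 lower, with sums led by *Gria2* of 1337, 1574 and 1387 CPM.

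Granule neuron-like cells, the first neurons of the lineage, had the members' sum at 1859 CPM in the wild-type, 2002 in the nestin-Cre and 2565 in the Emx1-Cre library. In the nestin-Cre comparison *Fos* and *Fosb*, 2 of 6, were at least 1.5-fold higher, beside 13.2% of 8696 genes, and 0 were lower, beside 8.79%. In the Emx1-Cre comparison *Fos*, 1 of 5, was at least 1.5-fold higher, beside 8.36% of 8010 genes, and 0 were lower, beside 4.14%. *Fos* was at 328, 608 and 701 CPM, log2 ratios of 0.89 (0.74 to 1.05) and 1.10 (0.94 to 1.26), and was the member with the clearest difference in this class. *Fosb* rested on 6 UMIs in the wild-type library. *Jun* was at 432, 332 and 573 CPM, and *Egr1* at 499, 471 and 528 CPM, the latter with intervals that overlapped the wild-type one in both comparisons. *Arc* was at 2.54, 3.65 and 1.73 CPM from 3, 15 and 5 UMIs, and a difference between the genotypes was not detectable at this depth. Other early response genes were higher in 8 and lower in 3 of 23 in the nestin-Cre library, and higher in 8 and lower in 0 of 20 in the Emx1-Cre library.

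**Figure D3:**
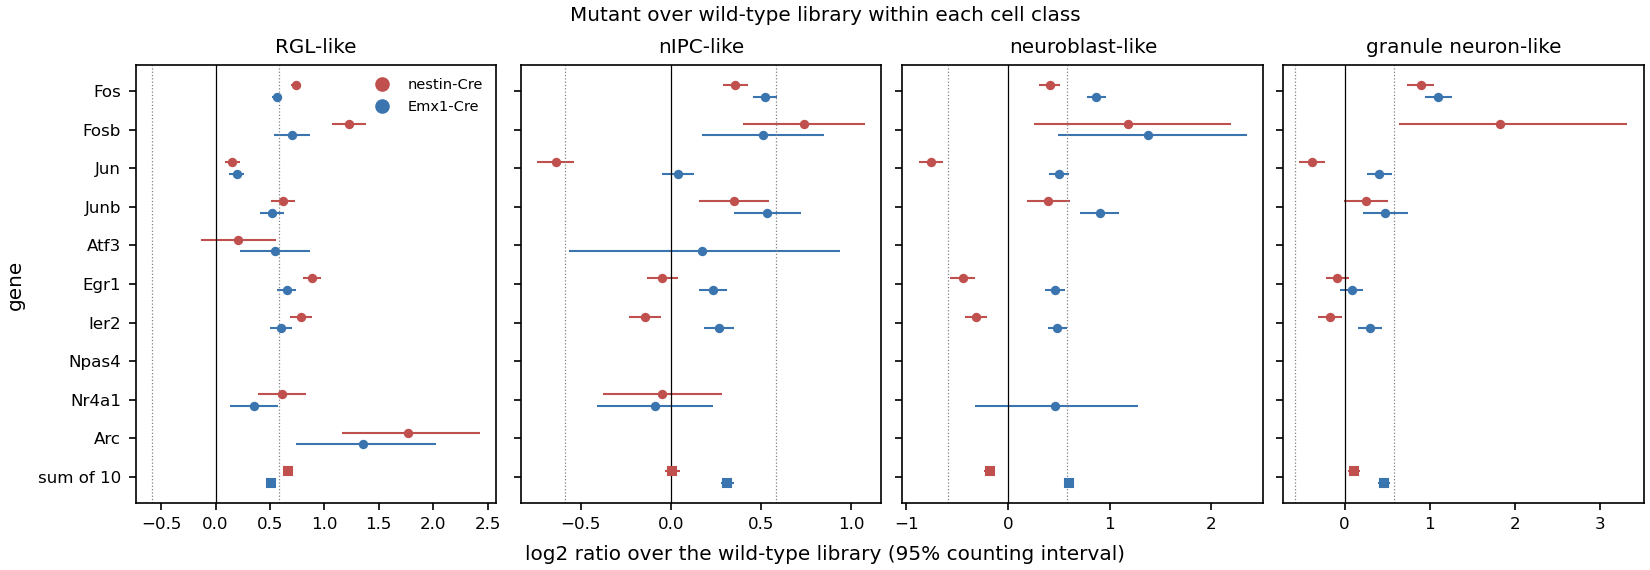
Ratios of the mutant P7 libraries to the wild-type library within 4 cell classes, on a log2 scale with a separate horizontal axis for each class. Points are genes with at least 50 UMIs, squares the sum of the 10 members, bars 95% counting intervals and dotted lines 1.5-fold; in RGL-like cells every point lies above 0 over the whole class, which within single clusters did not hold for *Jun* and *Atf3* in the nestin-Cre library and for *Jun* in cluster 12 of the Emx1-Cre library, and in neuroblast-like cells the squares lie at -0.18 for nestin-Cre and 0.61 for Emx1-Cre.

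Cell types on either side of this lineage were read for comparison, and further cells are given under Other observations. In astrocyte-like cells, which share their progenitors with the stem cells, the summed members were at 7051 CPM in the wild-type, 7238 in the nestin-Cre and 7645 in the Emx1-Cre library, log2 ratios of 0.04 and 0.12. *Larp7* in these cells was at 24.9, 2.06 and 6.44 CPM. *Fos* lay between 2814 and 2960 CPM, whereas *Fosb* was at 248 CPM in the wild-type and at 380 and 363 CPM in the mutant libraries. *Arc* was at 5.56, 10.7 and 7.32 CPM, with overlapping intervals. Microglia-like cells do not descend from neural progenitors, and *Larp7* there was at 56.3, 36.0 and 40.5 CPM. They lay in a pair of clusters that the libraries also filled unequally, cluster 2 with 292 wild-type, 119 nestin-Cre and 51 Emx1-Cre cells and cluster 3 with 255, 345 and 211. The members summed to 5067, 5819 and 5287 CPM over the class, but to 2931, 1921 and 1992 CPM in cluster 2 and to 6441 (6273 to 6612), 6600 (6465 to 6736) and 5912 (5750 to 6078) CPM in cluster 3, so within neither cluster was the sum higher in a mutant library beyond counting error. Within cluster 3 *Fos* was at 627 CPM in the wild-type, 1156 in the nestin-Cre and 845 in the Emx1-Cre library, log2 ratios of 0.88 (0.74 to 1.03) and 0.43 (0.27 to 0.59), and *Fosb* was at 163, 608 and 266 CPM (1.90 and 0.70). The *Fos* ratios over the whole RGL-like class were 0.73 and 0.56, with 0.71 and 0.50 in its cluster 12 and 0.52 and 0.47 in its cluster 13. *Fos* and *Fosb* were thus higher in both mutant libraries in microglia-like cluster 3 too. *Junb* in that cluster was lower, at 1749, 1334 and 1337 CPM, as was *Nr4a1*, at 360, 189 and 295 CPM. In cluster 2 the *Fos* ratios were -0.11 (-0.37 to 0.15) and -0.21 (-0.54 to 0.11). *Fosb* there was at 46.8 CPM in the wild-type and 97.1 in the nestin-Cre library, from 26 and 27 UMIs. That log2 ratio of 1.05 (0.22 to 1.89) was beyond counting error, whereas the Emx1-Cre library held 3 UMIs of *Fosb*, too few for a ratio. Endothelial-like cells of the nestin-Cre library, 56 cells that were all in cluster 9, had the members' sum at 5648 CPM, against 3200 in the wild-type and 3768 in the Emx1-Cre library within that cluster, while *Larp7* in the class was at 50.3, 43.8 and 37.5 CPM. Whether the higher sum of these few cells and the *Fos* and *Fosb* levels of the microglia-like cells have a part in the values of the RGL-like cells was not tested.

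Genes whose pattern was most like that of *Arc* and of *Fos* were sought over 32 profiles, each a class of at least 50 cells in 1 library, among 12283 genes. For *Arc* they were *1110017D15Rik*, *Fbxo36*, *Prob1*, *Rasgrp1* and *Scara3*, with Pearson correlations of log2 CPM between 0.750 and 0.777. For *Fos* they were *Glud1*, *Gstm1*, *Btg2*, *Pla2g7* and *Sorl1*, between 0.869 and 0.888. The correlation of *Arc* with *Fos* was 0.604, and among the members *Fos* was closest to *Jun* at 0.799. The profiles come from 3 libraries and differ in depth, so these values describe them without a test.

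Sequence before the start sites was taken from RefSeq (GRCm38.p6), where 7 of the 10 members had a promoter entry and *Arc*, *Egr1* and *Ier2* were not matched. In the 250 bases before the start, TGACG, the core of the site bound by CREB and ATF factors, was found on either strand in 6 of the 7 (all but *Jun*), beside 17.8% of 32851 promoters. The whole palindrome TGACGTCA, which contains that core, was in 0 of 7 and in 1.55% of all promoters, and TGANTCA, the letters of an AP-1 site, in 0 of 7 and 6.75%. TATAAA was in 1 of 7 (*Fos*) and 12.4%, GGGCGG in 6 of 7 (all but *Junb*) and 32.7%, and the CArG box in 0 of 7 and 1.47%. A match describes the letters only, and nothing is drawn from it about a factor. The sequences given are those of *Fos* and *Fosb*, the members lower in knockout neurospheres and higher in mutant RGL-like cells, and *Npas4* and *Nr4a1*, higher in knockout neurospheres, with TGACG or its reverse complement CGTCA and TATAAA in capitals. They lie at chr12:85473640-85473889 on the plus strand for *Fos*, chr7:19310046-19310295 on the minus strand for *Fosb*, chr19:4989972-4990221 on the minus strand for *Npas4* and chr15:101266596-101266845 on the plus strand for *Nr4a1*, each directly upstream of a start site listed for the gene.
Fos: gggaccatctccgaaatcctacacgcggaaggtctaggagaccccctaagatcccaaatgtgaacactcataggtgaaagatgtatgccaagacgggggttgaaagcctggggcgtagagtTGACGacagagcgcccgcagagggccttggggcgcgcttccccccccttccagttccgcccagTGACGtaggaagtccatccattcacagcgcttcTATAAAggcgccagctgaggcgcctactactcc
Fosb: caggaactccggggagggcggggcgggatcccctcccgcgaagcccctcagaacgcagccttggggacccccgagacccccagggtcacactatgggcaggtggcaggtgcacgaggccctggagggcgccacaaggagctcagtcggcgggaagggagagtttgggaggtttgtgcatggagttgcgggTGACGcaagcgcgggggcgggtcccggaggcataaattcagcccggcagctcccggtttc
Npas4: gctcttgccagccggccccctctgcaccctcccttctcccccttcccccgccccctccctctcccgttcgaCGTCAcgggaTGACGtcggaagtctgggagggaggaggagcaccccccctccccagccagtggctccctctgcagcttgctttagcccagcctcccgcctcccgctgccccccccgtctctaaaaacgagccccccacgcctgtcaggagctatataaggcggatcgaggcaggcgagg
Nr4a1: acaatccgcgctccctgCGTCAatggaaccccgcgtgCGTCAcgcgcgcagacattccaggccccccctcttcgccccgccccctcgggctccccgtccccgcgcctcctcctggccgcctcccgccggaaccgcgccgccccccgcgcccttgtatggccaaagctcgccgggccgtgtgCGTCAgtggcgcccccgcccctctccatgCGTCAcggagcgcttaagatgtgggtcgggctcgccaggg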

How the data were processed

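The deposited neurosphere table holds raw counts per Entrez gene, which the authors made by aligning reads to a mouse transcriptome with Minimap2; strand and the treatment of shared reads are not stated. The deposited P7 files hold UMI counts per gene and barcode, made by the authors with Cell Ranger from 10x 3′ libraries. Neurosphere libraries held 60842000, 61187600, 59821300, 60335300 and 62474600 counts, and the biological coefficient of variation was 19.4%. Another 5 columns of that table, whose names give no day of differentiation, match no sample of the series and were not used. The ATAC-seq and CUT&Tag samples were not used either.

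Samples were grouped by title. Neurospheres were fitted with edgeR 4.0.16 (limma 3.58.1, R 4.3.3; TMM, filterByExpr, robust quasi-likelihood test, Benjamini-Hochberg adjustment over all genes tested, threshold 0.05), which kept all 10 members. DESeq2 1.42.0, other size factors, no filter, a replicate block and the omission of each library were the alternatives. Libraries share only a number across genotypes, and residuals of libraries with the same number had correlations of -0.0053 and 0.093, so the main test has no pairing and the block is an alternative only. The fit was tested on simulated data.

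P7 cells with more than 500 genes and below 15% mitochondrial UMIs were clustered with scanpy 1.11.5, igraph 0.11.9 and scikit-learn 1.9.0 (Python 3.11.15, numpy 2.4.6; 2000 variable genes scaled within libraries, 30 components, 15 neighbours, Leiden resolution 1), leaving out 63 genes of the members, early response and heat shock lists. Cell cycle genes were kept. A cluster took the name of a marker list with at least 3 markers raised 1.5-fold and a mean log2 difference of at least 0.50. These limits were set with the clusters at hand, and the naming rule was run in 2 versions; the second names the granule neuron-like cluster and changes no other name. It was adopted before member levels by class were read. UMIs were summed per class, intervals are exact at 95% (scipy 1.17.1), and ratios need 50 UMIs over both libraries and classes 50 cells. Doublet scores did not separate cells in the wild-type library (2 called, against 272 and 407). Alternatives were more than 200 genes per cell, thinning to 1500 UMIs, a per-cell marker gate, no scaling, omission of the 6% highest doublet scores and omission of *Fos*. Figures were drawn with matplotlib 3.10.9.

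The members and lists were chosen with earlier results of these data known. The named genes are all members, the called genes of each list with the largest change (up to 4 a direction), the gene of each list with the most UMIs, and the 5 genes most like *Arc* and *Fos* among those with at least 200 UMIs. *Hexim1* was added after its values were seen, as were the promoter motifs and the choice of promoters shown. *Arc* was kept out of the count of called members as a description, and its adjusted p had been seen when this was settled; with *Arc*, edgeR called 0 of 10 and DESeq2 6.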

Additional observations from a re-analysis of the deposited data

Results flagged for a closer look

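Among 74 pairs of a class and a gene or sum, 7 had mutant libraries on opposite sides of the wild-type library, each beyond counting error. In nIPC-like cells, *Ier2* had log2 ratios of -0.14 in the nestin-Cre and 0.27 in the Emx1-Cre library. The nestin-Cre ratio of *Ier2* changed sign among the clusters of that class. It was -0.58 (-0.74 to -0.41) in cluster 1, 0.41 (0.18 to 0.64) in cluster 4, -0.15 in cluster 5 and 0.21 in cluster 14. For Emx1-Cre it was -0.02, 0.51, 0.28 and 0.48 in these clusters. In neuroblast-like cells, *Jun* was at -0.76 and 0.50. *Egr1* in the same cells was at -0.45 and 0.47, and *Ier2* at -0.31 and 0.48. The summed members of neuroblast-like cells were at -0.18 and 0.61. In granule neuron-like cells, *Jun* was at -0.38 and 0.41, and *Ier2* at -0.17 and 0.30. These differences were not tested, as each genotype has 1 library and both ratios share the wild-type library.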

How the results depend on the processing

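With 1 P7 library per genotype, genotype and library cannot be told apart, and the cause of any shift below was not tested. Leaving out shared barcodes and reading each cluster alone were chosen after seeing the data. The granule neuron-like class was added to the compared classes later and has too few cells under the gate and without scaling.

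In neurospheres, DESeq2 called 5 members, no filter 1, and the omission of single libraries 0 to 4. Over all genes, calls went from 4 higher and 8 lower in edgeR to 728 and 863 in DESeq2, 64 and 121 without a filter, 1144 and 976 without wild-type replicate 1, and 0 and 0 without knockout replicate 3. They were 7 and 5 without wild-type replicate 2, 2 and 0 without knockout replicate 1, and 2 and 2 without knockout replicate 2. A fit without a wild-type replicate has 1 wild-type library, so its spread comes from the knockout libraries alone and nothing is drawn from its calls. The log2 fold change of *Jun* was 0.0023 with total counts and -0.15 to 0.11 when single libraries were left out, and that of *Junb* -0.14 to 0.29. Of 100 member values, *Arc* included, 84 were counted as the same, 10 as passing the threshold and 6 as turned. Calls of *Arc*, which is given without a test, were not counted as passing. Among the fits with both wild-type libraries, DESeq2 and the fit without a filter called it.

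Under the replicate block, edgeR called 0 members and 0 genes, *Larp7* included, and *Junb* was at -0.20; the pairing rests on a number alone.

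In RGL-like cells the summed log2 ratio (nestin-Cre; Emx1-Cre) was 0.76; 0.56 with the gate, 0.60; 0.46 without *Fos*, 0.52; 0.40 in cluster 12 and 0.48; 0.43 in cluster 13. For single members, 0 of 108 settings over the whole class had the opposite sign, but 5 of 36 values within single clusters did, all of *Jun* or *Atf3*.

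In nIPC-like cells it was -0.11; 0.17 after thinning, -0.40; 0.013 with the gate and -0.17; 0.21 without *Fos*. It was 0.15 for nestin-Cre without scaling and 0.23 for Emx1-Cre without the highest doublet scores. By cluster it was -0.69; -0.089 in cluster 1, 0.50; 0.56 in cluster 4, 0.19; 0.40 in cluster 5 and 0.36; 0.42 in cluster 14. In nestin-Cre cells *Fosb* was at -0.022 with the gate and -0.13 in cluster 1 (16 and 11 UMIs, below the 50 needed), and *Jun* at 0.093 in cluster 4.

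In neuroblast-like cells it was -0.24 after thinning for nestin-Cre, -0.11; 0.46 without scaling and -0.40; 0.52 without *Fos*. Over all classes, 31 of 64 summed values moved and 7 had the opposite sign, while of 416 single ratios 99 moved, 3 turned from a value past 1.5-fold and 38 had the opposite sign.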

Other observations

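Oligodendrocyte precursor-like cells had the members' sum at 1052 CPM in the wild-type, 1743 in the nestin-Cre and 1323 in the Emx1-Cre library. *Fos* in these cells was at 231, 564 and 354 CPM, lowest in the wild-type library. Unnamed cluster 7 had *Olig1*, *Olig2* and *Egfr* among its top genes. Its members' sum was at 4530 CPM in the wild-type, 6756 in the nestin-Cre and 5873 in the Emx1-Cre library. There, *Fos* was at 1625, 2837 and 2410 CPM. *Npas4* was most abundant in Cajal-Retzius-like cells of the nestin-Cre library, at 39.5 CPM from 19 UMIs, and had 0 UMIs in the 65 such cells of the wild-type library, where the upper limit was 42.9 CPM.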
